A study of Mus musculus with 8 samples.

Results

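The miR-26 family was represented by 9 distinct small RNA sequences, of 11568 distinct sequences in the count table. A sequence was taken as a member when its annotation named mature mouse miR-26a or miR-26b, and this gave 7 miR-26a-5p and 2 miR-26b-5p sequences. All 9 came from the 5p arm. The family was selected on the counts of the main miR-26a-5p sequence in methyltransferase RNA, which were much lower after oxidation than before it, so that contrast is given below as a description with no test. Another 7 sequences carried a miR-26 precursor annotation only, 6 of miR-26b and 1 of miR-26a. They were followed alongside the members because they include the most abundant form of miR-26b.

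The cells were of the MIN6B1 line, derived from a mouse insulinoma and used as a model of the pancreatic beta cell, and their total RNA was taken. There were 4 groups of 2 libraries each. Cells had received either a control plasmid (CTRL) or a plasmid for HENMT1ΔC-T6B, and each RNA was sequenced either as it was (non-oxidized) or after oxidation with sodium periodate. All groups share the cell line, the lipofection and the QIAseq library kit. The transfected share of the cells was not analysed here, and the labels do not say whether replicates were separate cultures, so p-values measure only the spread between these libraries.

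HENMT1 is the methyltransferase that places a 2′-O-methyl group on the 3′ end of piRNAs, and T6B is a peptide that binds Argonaute proteins. Periodate destroys the vicinal diol of an unmodified 3′ end, which then cannot be ligated to a sequencing adapter, whereas a methylated end survives. The design takes what is left after oxidation to be small RNAs with a protected 3′ end, and the oxidized control libraries, which still held 13772 and 10115 mature miRNA counts, give its background. MicroRNAs of the miR-26 family are processed from hairpins in introns of genes for small phosphatases of the RNA polymerase II tail, and they repress targets through the seed, the bases at positions 2 to 8. In beta cells miR-26 has been linked, with miR-24, miR-182 and miR-148, to transcription of the insulin genes.

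The annotated mature sequences are shown first, since both family members carry the same seed and differ elsewhere. They are taken from RefSeq (GRCm38.p6), 5′ to 3′, with the seed in capitals.
mmu-miR-26a-5p: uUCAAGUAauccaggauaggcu
mmu-miR-26b-5p: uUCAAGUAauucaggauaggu
Counted from 1 at the 5′ end and written with T for U, miR-26b-5p differs from miR-26a-5p by C11T and C21T, and its annotated form has 21 nt against 22 nt. Among 1679 mature mouse miRNA names in the RefSeq table, only these 2 have this seed. Mature miR-26a-5p has 2 source loci, Mir26a-1 at chr9:119031811-119031832 and Mir26a-2 at chr10:126995543-126995564, both on the plus strand, so counts of miR-26a-5p cannot be split between them. Mature miR-26b-5p comes from Mir26b at chr1:74394324-74394344, plus strand. In GENCODE M21 the hairpin of Mir26a-1 lies in an intron of Ctdspl and that of Mir26b in an intron of Ctdsp1. The hairpin of Mir26a-2 lies within Ctdsp2, and its last base, at 126995613, is also the first base of an annotated Ctdsp2 exon.

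Within each of the 2 miRNAs, the listed sequences on which the results turn differed only at the 3′ end. They are given as DNA letters, as in the deposited table, with every base after position 20 in capitals for the untailed forms.
miR-26a-5p 20 nt: ttcaagtaatccaggatagg
miR-26a-5p 21 nt: ttcaagtaatccaggataggC
miR-26a-5p 22 nt: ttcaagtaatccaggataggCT
miR-26a-5p 23 nt: ttcaagtaatccaggataggCTG
miR-26b-5p 20 nt: ttcaagtaattcaggatagg
miR-26b-5p 21 nt: ttcaagtaattcaggataggT
miR-26b-5p 22 nt: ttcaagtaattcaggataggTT
miR-26b-5p 23 nt: ttcaagtaattcaggataggTTG
miR-26b-5p 24 nt: ttcaagtaattcaggataggTTGT
Such length variants of a miRNA are called isomiRs. The miR-26a-5p form of 23 nt and the miR-26b-5p forms of 22, 23 and 24 nt follow the hairpin past the annotated end and carry the precursor annotation only. A further set had no annotation and carried 1 extra base after the 22-nt form, shown here in capitals, that the hairpin does not encode.
miR-26a-5p 22 nt with added uridine: ttcaagtaatccaggataggctT
miR-26a-5p 22 nt with added adenosine: ttcaagtaatccaggataggctA
miR-26b-5p 22 nt with added uridine: ttcaagtaattcaggataggttT
miR-26b-5p 22 nt with added adenosine: ttcaagtaattcaggataggttA

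Totals of listed counts ranged from 2446036 to 6641250 in the 6 libraries other than oxidized control, and were 438363 and 295094 in oxidized control. With 3 counts as the limit for an unseen sequence, one missing from the smallest library could make up to 0.00102% of it (counting error only). For oxidized methyltransferase RNA, and for no other group, each listed sequence had 2 or more counts in both libraries and 10 or more together, so a rare form could be listed only if it was seen there. As markers of the cell type, 3 of 4 beta cell miRNAs were listed (miR-375-3p, miR-7a-5p and miR-184-3p) and made up 23.4% to 25.1% of mature miRNA counts in non-oxidized control RNA. None of the 9 markers of blood cells, muscle and fibroblasts was listed, while the liver marker miR-122-5p held at most 0.0395% and the endothelial marker miR-126a-3p at most 0.00951% of mature miRNA counts in any group.

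In cells with the control plasmid, most annotated miR-26a-5p counts were of the 22-nt form. The 22-nt sequence had 79103 and 80275 counts in the 2 non-oxidized libraries and made up 91.7% ± 0.0512 (SD, n = 2) of the counts of the 8 miR-26a sequences. The 20-nt form had 3278 and 4007 counts and the 21-nt form 2979 and 2292. The unannotated uridine-tailed form, which is not in that total, came to 10.9 and 9.84 per 100 counts of the 22-nt form. MiR-26b was different in that its annotated form was a minor one. The 21-nt sequence had 2271 and 2186 counts, against 30347 and 34942 for the 22-nt sequence with 1 more templated uridine, which made up 89.0% ± 0.270 (SD, n = 2) of the counts of the 8 miR-26b sequences. The 2 member sequences of miR-26b therefore stand for a small part of it, and miR-26b-5p made up 3.01% ± 0.0422 (SD, n = 2) of the family's counts over the members but 29.6% ± 1.79 once the precursor-annotated forms were added.

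**Figure D1:**
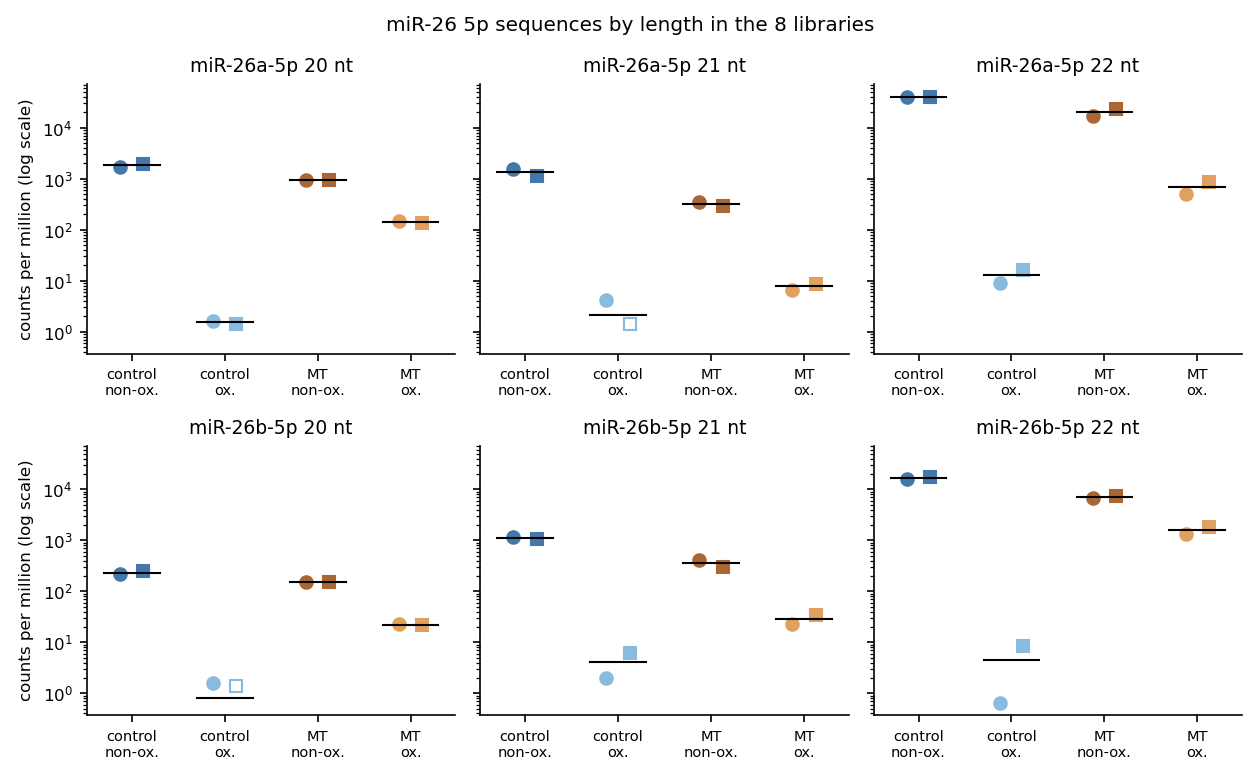
Level of the 20-, 21- and 22-nt forms of miR-26a-5p and miR-26b-5p in each of the 8 libraries, in CPM on a log axis, by group (MT stands for methyltransferase, ox. for oxidized). Circles and squares are the libraries of replicates 1 and 2, the short line is their mean, and an open symbol marks 0 counts, drawn at the level of 3 counts. In oxidized methyltransferase RNA the 22-nt miR-26b-5p form, at 1344 and 1821 CPM, lies above the 22-nt miR-26a-5p form, at 513 and 875 CPM, whereas in both non-oxidized groups it lies below.

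Oxidation of control RNA removed nearly all miR-26 reads. The 22-nt miR-26a-5p sequence had 28 and 35 counts after oxidation, and the 22-nt miR-26b-5p sequence 2 and 18. In CPM (counts over TMM-scaled library size), miR-26a-5p stood at 40075 ± 882 (SD, n = 2) in control RNA before oxidation and at 12.8 ± 5.21 after it. Its log2 fold change was -11.63 ± 0.64 (SE; adjusted p = 2.71e-07, edgeR quasi-likelihood test with Benjamini-Hochberg adjustment). All 9 members were lower in oxidized control RNA (edgeR, adjusted p from 2.60e-07 to 2.30e-04), as were the 7 precursor-annotated forms. Lower calls made up 46.4% of all 9851 sequences tested and 92.8% of mature miRNA sequences, so a member shares this call with nearly every miRNA. The members' median fitted log2 fold change was -10.17, beside -8.69 over mature miRNA sequences. With the 3 members at 0 in both oxidized libraries placed at their bound it was -7.90, which has no counterpart here for the other miRNAs. Of those 3, the 19-nt form was at least 136-fold lower, the form lacking the first base at least 130-fold lower and the T1C form at least 58.1-fold lower (against 3 counts per library). Such bounds hold under TMM scaling only, whose factors were 7.05 and 7.23 for the oxidized control libraries. They would be smaller under total listed counts. Scaling by total listed counts shifted the values of all sequences up by a median of 4.30 on the log2 scale. The 22-nt miR-26a-5p sequence was then at -7.21.

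In non-oxidized RNA the plasmids were compared to see whether the methyltransferase itself went with another level of the family. The 22-nt miR-26a-5p sequence had 33053 and 49410 counts with the methyltransferase, or 20216 ± 4124 CPM (SD, n = 2) against 40075 ± 882 with the control plasmid, and the groups did not overlap. Its log2 fold change was -0.99 ± 0.41 (SE; adjusted p = 0.517, edgeR with Benjamini-Hochberg adjustment). No member passed the test in either direction, and 0% of all sequences did. At an unadjusted p under 0.05, 5 of the 9 members were lower and none was higher, beside 4.73% and 3.98% of all sequences. That share was not computed for mature miRNA sequences alone, so the 5 are not read as a trait of the family. All 9 fitted values were negative, from -2.06 for the 21-nt miR-26a-5p form to -0.09 for the T1C form, with a median of -0.96 beside -0.63 for mature miRNA sequences and 0.05 for all sequences. Values of the T1C and T1G forms of miR-26a-5p, at -0.09 and -0.39, turned positive under scaling by total counts. DESeq2's Wald test called 2 members lower, the 21-nt miR-26a-5p form at -2.26 (adjusted p = 0.0118) and the 21-nt miR-26b-5p form at -1.85 (adjusted p = 0.0294). The summed beta cell markers also held a smaller share of mature miRNA counts with the methyltransferase, 17.0% to 19.0% against 23.4% to 25.1%. The markers did not move alike, so no common fall is read from the sum. Log2 fold changes of their main sequences were -1.41 ± 0.40 (SE) for miR-7a-5p, -0.83 ± 0.44 for miR-375-3p and -0.55 ± 0.58 for miR-184-3p. The liver marker miR-122-5p held 0.0211% to 0.0395% against 0.00418% to 0.0132%. The part of these shares in the family's values was not tested. In bulk RNA, fewer cells that hold a miRNA and less of it per cell cannot be told apart.

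The family's share of mature miRNA counts needs no scaling between libraries. In control RNA it was 2.53% and 2.06% without oxidation and 0.421% and 0.504% after it. With the methyltransferase it was 1.65% and 1.75% without oxidation and 0.0957% and 0.143% after it. The 4 groups did not overlap, and the lowest share was that of oxidized methyltransferase RNA. As a share of all listed counts the order of the oxidized groups turned, with 0.0153% in control and 0.0795% in methyltransferase RNA. For each of the tested pairs of groups the exact two-sided permutation p was 0.333, the smallest that 2 libraries against 2 allow. With let-7 left out of the denominator the non-oxidized groups overlapped (exact permutation p = 0.667).

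The next comparison asked how much more of each sequence was read after oxidation when the methyltransferase was present. It shares the oxidized methyltransferase libraries with the contrast that picked the family, and listing also needed reads there. The 22-nt miR-26a-5p sequence had 1381 and 1889 counts in oxidized methyltransferase RNA against 28 and 35 in oxidized control RNA, which is a difference of 5.77 ± 0.51 on the log2 scale (SE). No p is given for it, since its counts in oxidized methyltransferase RNA were among those that chose the family. The 20-nt form had 401 and 287 counts against 5 and 3, a log2 fold change of 6.48 ± 0.47. The annotated 21-nt miR-26b-5p form had 62 and 74 counts against 6 and 13, a difference of 2.87 ± 0.54 on that scale (adjusted p = 9.62e-04, edgeR with Benjamini-Hochberg adjustment). Its sign turned under total listed counts (-0.14) and when only miRNA-annotated sequences were fitted (-1.25). The 22-nt miR-26b-5p form, outside the member set, had 3619 and 3932 counts against 2 and 18, a log2 fold change of 8.52 ± 0.85.

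Of the 9 members, 8 were called higher in oxidized methyltransferase RNA, beside 42.3% of all sequences and 85.3% of mature miRNA sequences. Nothing is read from this count, since a member such as the 19-nt form (7 and 4 counts against 0 in both) could be listed only through the group in which it is higher. The exception was the 21-nt miR-26a-5p form, with 18 and 19 counts against 13 and 0, whose log2 fold change of 1.71 ± 0.78 did not pass (edgeR adjusted p = 0.101, Benjamini-Hochberg). This value rested on oxidized control replicate 1. Without that library the fitted value was 7.04, set against a single oxidized control library with 0 counts, so nothing is read from it. It was at -1.27 under total listed counts, and at -2.55 and called lower when only miRNA-annotated sequences were fitted (edgeR adjusted p = 0.0388, Benjamini-Hochberg). The T1G form of miR-26a-5p, at 6 and 11 counts against 1 and 0, could also be listed only through the group in which it is higher. Nothing is read from its call, which did not hold in every fit with 1 library left out. The members' median fitted log2 fold change was 5.25, beside 6.49 for mature miRNA sequences. With the 3 members at 0 in both oxidized control libraries placed at their bound it was 2.87, a value with no counterpart here for the other miRNAs. All 7 precursor-annotated forms were higher, but 6 of them were at 0 in both oxidized control libraries. Listing needed reads in oxidized methyltransferase RNA, so nothing is read from this count either. The 23-nt and 24-nt miR-26b-5p forms, at 0 in oxidized control RNA, were higher by at least 59.5-fold for 23 nt and 34.2-fold for 24 nt under TMM scaling. These bounds would be smaller under total listed counts. The count of members called higher depended on the scaling and on the sequences fitted. It was 3 under total listed counts, which shifted the values of all sequences by a median of -2.99. When only sequences with a miRNA annotation were fitted, 2 members were called higher and 1 lower. Lower calls were 3.92% of all sequences in the fit of every sequence. In the authors' deposited table the signed fold change of oxidized control against oxidized methyltransferase RNA was -62.7 for the 22-nt miR-26a-5p sequence, -8.55 for the 21-nt and -430 for the 22-nt miR-26b-5p sequence.

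The values that picked the family are those of methyltransferase RNA with and without oxidation, and they are described here with no test. The 22-nt miR-26a-5p sequence stood at 17299 and 23132 CPM without oxidation and at 513 and 875 CPM after it, so that 3.43% of its level was retained (log2 fold change -4.86 ± 0.48, SE). The size of such values depends on the scaling, and that of miR-26a-5p was -3.97 under total listed counts and -3.47 when only miRNA-annotated sequences were fitted. In the authors' deposited table the signed fold change of non-oxidized against oxidized methyltransferase RNA was 29.2 for it. The annotated 21-nt miR-26b-5p sequence stood at 419 and 295 CPM without and at 23.0 and 34.3 CPM after oxidation, which is 8.02% retained (log2 fold change -3.64 ± 0.51, SE). The 22-nt miR-26b-5p sequence stood at 6767 and 7470 CPM without and at 1344 and 1821 CPM after oxidation, which is 22.2% retained (log2 fold change -2.17 ± 0.61, SE). Over the pairs of libraries, retention ran from 2.22% to 5.06% for the 22-nt miR-26a-5p and from 18.0% to 26.9% for the 22-nt miR-26b-5p sequence. These forms of equal length, which differ by C11T and C21T, therefore did not overlap. The same order held within each oxidized methyltransferase library. Per 100 counts of 22-nt miR-26a-5p there were 38.4 and 43.5 counts of 22-nt miR-26b-5p in non-oxidized control RNA, 39.1 and 32.3 in non-oxidized methyltransferase RNA, and 262 and 208 in oxidized methyltransferase RNA. Oxidized control RNA gave 7.14 and 51.4, from only 2 and 18 counts of the 22-nt miR-26b-5p form.

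**Figure D2:**
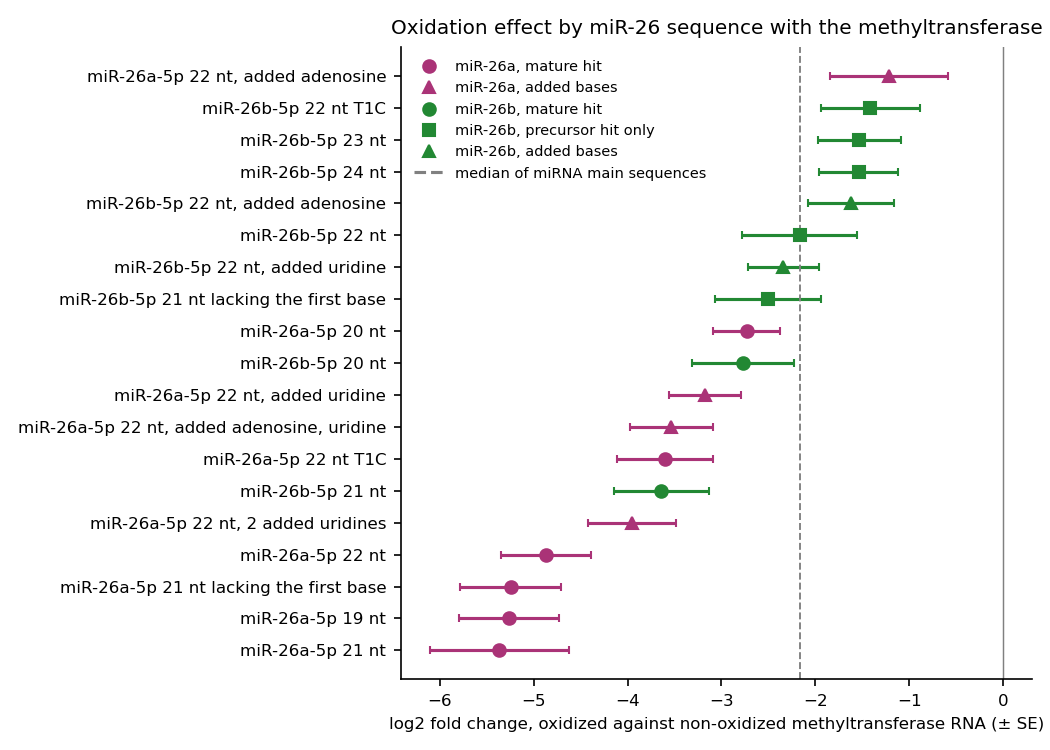
Fitted log2 fold change of oxidized against non-oxidized methyltransferase RNA for the 19 miR-26 sequences with a mean of at least 50 counts in non-oxidized methyltransferase RNA, with bars of 1 standard error. T1C is a base change counted from the 5′ end, colours separate miR-26a from miR-26b, symbols show the annotation, and the dashed line is the median of 150 miRNAs at -2.16. Values run from -5.36 for the 21-nt miR-26a-5p form to -1.21 for the adenosine-tailed miR-26a-5p form.

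Within miR-26a-5p, retention differed between forms, also between some with the same 3′ end. The T1C form, with the 3′ end of the 22-nt form, retained 8.14%, with a range over pairs of libraries from 6.28% to 10.6%. The 21-nt, 19-nt and first-base-lacking forms retained 2.42%, 2.52% and 2.56%, next to the 3.43% of the 22-nt form, and their ranges over pairs of libraries overlapped. The 20-nt form, which ends at the last of the shared GG, retained 15.0%, and its lowest value over the pairs, 14.1%, was above all values of those 4 forms. Per 100 counts of the 22-nt form there were 5.46 and 4.01 of the 20-nt form in methyltransferase RNA before oxidation and 29.0 and 15.2 after it. In control RNA there were 4.14 and 4.99 before oxidation and 17.9 and 8.57 after it, the latter from 5 and 3 counts of the 20-nt form. A rise on oxidation was thus seen with the control plasmid too. In miR-26b-5p the 20-nt form retained 14.7%, within the range of its miR-26a-5p counterpart. The longer miR-26b-5p forms retained more, 34.6% for 23 nt and 34.4% for 24 nt. The range of the 23-nt form over the pairs of libraries overlapped that of the 22-nt form, while the range of the 24-nt form, from 28.3% upwards, did not.

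Tailed forms, which had no annotation in the table, differed from the untailed ones in miR-26a-5p. TUT4, a terminal uridylyl transferase, is known to add uridines to miR-26a. The uridine-tailed form of miR-26a-5p had 8597 and 7900 counts in control RNA before oxidation and 0 in both libraries after it. With the methyltransferase it had 2942 and 4001 counts without oxidation and 510 and 407 after oxidation. Its retention was 11.1%, with a range of 10.1% to 12.3%, above the range of the untailed 22-nt form. The adenosine-tailed form had 315 and 315 counts in non-oxidized and 168 and 156 in oxidized methyltransferase RNA and retained 43.1%, with a range of 37.9% to 49.0%. In oxidized control RNA it had 0 and 7 counts, or 0 and 20 per 100 untailed counts, which numbered only 28 and 35. Per 100 untailed counts, the uridine-tailed form made up 8.50 ± 0.568 (SD, n = 2) in non-oxidized and 29.2 ± 10.9 in oxidized methyltransferase RNA, and the adenosine-tailed form 0.795 ± 0.223 and 10.2 ± 2.76. For miR-26b-5p the uridine-tailed form made up 5.30 ± 0.497 and 4.85 ± 1.54 per 100 untailed counts before and after oxidation, and these values overlapped. The adenosine-tailed form of miR-26b-5p made up 0.758 and 0.514 per 100 untailed counts before oxidation and 0.995 and 0.865 after it, with 32.5% retained. In methyltransferase RNA the adenosine-tailed form, per 100 untailed counts, thus stood higher after oxidation than before it for both miRNAs, by a smaller ratio for miR-26b-5p. For miR-26a-5p it also stood higher in oxidized control replicate 2, without the methyltransferase. In methyltransferase RNA the adenosine-tailed form stayed below the uridine-tailed form of the same miRNA. Among forms with 2 added bases, miR-26a-5p with 2 uridines retained 6.46% and with adenosine then uridine 8.61%. Those of miR-26a-5p with other pairs of added bases had under 50 counts on average in non-oxidized methyltransferase RNA and retained more.

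Taking the 30 annotated and tailed miR-26 sequences, 19 had a mean of at least 50 counts in non-oxidized methyltransferase RNA and could be ordered. The 4 lowest were miR-26a-5p forms, and among the 8 highest 7 were miR-26b-5p forms and 1 was the adenosine-tailed miR-26a-5p. Of the 18 neighbouring pairs in this order, 17 overlapped, and the exception was the step from the uridine-tailed miR-26a-5p to the 20-nt miR-26b-5p form. Of 45 unannotated sequences 1 substitution away from the 22-nt forms, 18 next to miR-26a that reached this mean had a median retention of 7.03% (4.76% to 11.6%), and 6 next to miR-26b had one of 45.4% (23.5% to 56.3%). The T1C and T1G forms of either miRNA had no genomic match in the table. Since listing needed reads after oxidation, the retention of rare forms such as these is biased upwards.

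The last base of a sequence also went with retention across other miRNAs. Over 524 other miRNA-annotated sequences with a mean of at least 50 counts in non-oxidized methyltransferase RNA, the median log2 fold change on oxidation was -3.16 for 120 ending in G, -1.70 for 92 ending in A, -1.66 for 70 ending in C and -1.51 for 242 ending in T. The 22-nt miR-26a-5p and miR-26b-5p forms, which end in T, were below the median of their class at -4.86 and -2.17. The T1C form of miR-26b-5p, also ending in T, was above it at -1.41. Of forms ending in G, the 20-nt forms were above the median of their class at -2.73 and -2.77. The 23-nt miR-26b-5p form was also above it at -1.53, while the 19-nt miR-26a-5p form was below it at -5.26. The part of the last base in the family's values was not tested.

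Against other miRNAs the family ran from near the low end to the middle of the distribution. Each miRNA was represented by its most abundant sequence with a mature annotation, which for miR-26b-5p is the minor 21-nt form. Among these sequences of 150 miRNAs with a mean of at least 50 counts in non-oxidized control RNA, the median log2 fold change on oxidation of methyltransferase RNA was -2.16, with quartiles of -3.18 and -1.09 and a range from -8.04 to 0.70. There were 11 of these sequences below the 22-nt miR-26a-5p form, 24 below the 21-nt and 75 below the 22-nt miR-26b-5p form. By level in non-oxidized methyltransferase RNA, miR-26a-5p was the 11th of the 150.

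**Figure D3:**
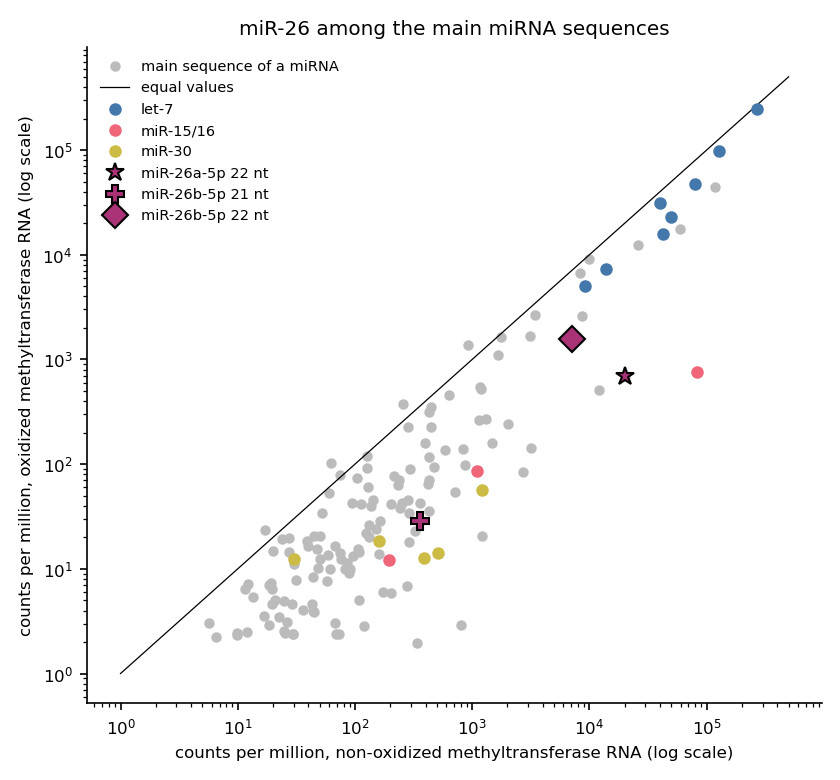
Mean CPM in oxidized against mean CPM in non-oxidized methyltransferase RNA (log axes) for the most abundant mature-annotated sequence of each of 150 miRNAs and for the 22-nt miR-26b-5p form, with a line of equal values. Each point is 1 miRNA, and colours mark let-7, miR-15a, miR-15b and miR-16, and miR-30. The 22-nt miR-26a-5p sequence (star), at a log2 fold change of -4.86, lies far below the line, while the 8 let-7 miRNAs, between -1.42 and -0.14, lie close to it.

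MicroRNAs linked with miR-26 to insulin gene transcription were spread widely. The miR-182-5p sequence had 2187 and 2730 counts in non-oxidized and 53 and 46 in oxidized methyltransferase RNA, so that its value was -5.88 ± 0.44 (log2 fold change, SE). For miR-24-3p the value was -3.50 ± 0.49, and for miR-148b-3p, at no more than 12 counts in either methyltransferase group, it was -0.89 ± 0.63. No value is given for miR-148a-3p, which was not analysed here. All 3 were called lower on oxidation of control RNA and higher with the methyltransferase in oxidized RNA (edgeR, Benjamini-Hochberg adjusted p under 0.05). They share these calls with 92.8% and 85.3% of mature miRNA sequences. The miR-182-5p and miR-148b-3p sequences were at 0 in both oxidized control libraries, and listing needed reads in oxidized methyltransferase RNA. Nothing is therefore read from the higher calls. None of the 3 miRNAs was called between plasmids in non-oxidized RNA, where 0% of all sequences were.

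The 3 miRNA families listed for comparison differed from one another as well. The 8 let-7 miRNAs, which repress growth genes, had a median log2 fold change of -0.80 in methyltransferase RNA, and let-7c-5p was the highest at -0.14. The 4 miR-15/16 miRNAs, known as brakes on the cell cycle, had a median of -3.85, with miR-16-5p at -6.75 and 0.931% retained. The 5 miR-30 miRNAs had a median of -4.42, from -5.16 for miR-30e-5p to -1.28 for miR-30c-5p. All 17 of these miRNAs were called lower on oxidation of control RNA and higher with the methyltransferase in oxidized RNA. Such calls were made for 92.8% and 85.3% of mature miRNA sequences, so nothing is read from this count.

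The 5 miRNAs with the profile most like that of the 22-nt miR-26a-5p sequence were miR-99b-5p, miR-182-5p, miR-130b-3p, miR-130a-3p and miR-15b-5p. Likeness was the Euclidean distance over the 8 libraries between log2 CPM values centred on each sequence's mean. Centring takes out the mean level, but level still enters through unseen sequences. The last 4 of these 5 miRNAs had 0 counts in both oxidized control libraries. The size of their fall there is set by their level before oxidation. Distances were 1.36, 1.40, 1.58, 1.85 and 2.06, beside a median of 5.43 and a largest value of 8.77 over 148 candidates. The family's own miR-26b-5p forms were farther away, at 3.65 for 22 nt and 4.67 for 21 nt. All these sequences share the 8 libraries and their scaling, so the distances are a description.

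**Figure D4:**
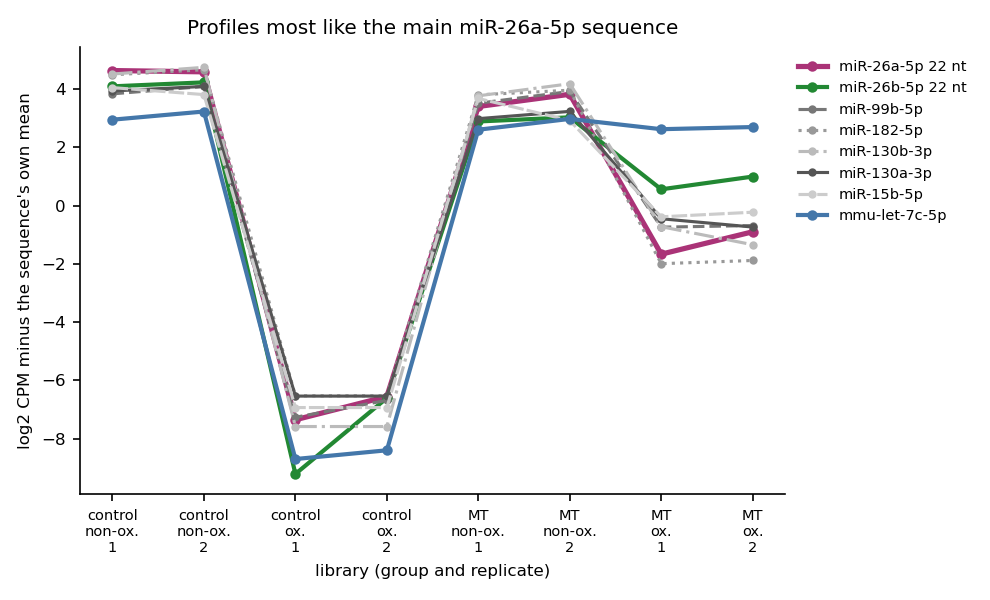
Profiles over the 8 libraries, as log2 CPM minus each sequence's own mean, for the 22-nt miR-26a-5p sequence, the 22-nt miR-26b-5p sequence, the 5 nearest miRNAs and let-7c-5p (MT stands for methyltransferase). Each line is 1 sequence and joins libraries in the order of the groups. The oxidized methyltransferase libraries are where the miR-26b-5p 22-nt line and that of let-7c-5p lie above miR-26a-5p.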

How the data were processed

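Total RNA of MIN6B1 cells was made into small RNA libraries (QIAseq miRNA kit, per the labels' protocols). The deposited table holds raw counts per distinct read sequence in each of 8 libraries, per the file headers, with annotation hits and numbers of genomic matches. It also holds the authors' signed fold change, used as a score, and the authors' adjusted p-values, which were taken as deposited. Aligner, genome build, read trimming, use of molecular identifiers and counting tool are not given in the sources used here. A further 16 per-sample columns of transformed values were not used.

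The 12608 lines were merged to 11568 sequences. Counts were fitted in edgeR 4.0.16 (R 4.3.3) with TMM factors, filterByExpr and the quasi-likelihood test, in 1 model of 4 groups of 2 libraries. P-values were adjusted by Benjamini-Hochberg over all 9851 sequences tested, and calls need an adjusted p under 0.05. Standard errors were derived from the fold change and its F statistic and are approximate. The fits were first checked on simulated counts. Retention is the ratio of mean CPM values, and its range is taken over the pairs of libraries. Shares carry an exact permutation test over libraries. For bounds, a count of 0 was set to 3 counts per library, under TMM scaling.

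Sequences named in full were the most abundant of each arm and, for each length from 20 to 24 nt, the most abundant with a mean of at least 50 counts. The form of 19 nt, the form lacking the first base, the tailed forms and the forms with a base change at position 1 were named in addition, after their values were seen. Members, lists, markers and tests were chosen with earlier results of these data known. Alternatives were DESeq2 1.42.0, other scalings and filters, a replicate block, and leaving out each library. Replicate numbers are shared by the groups but give only 2 pairs a comparison, so they were not taken to pair libraries. Because no member is longer than its annotated form, the share of longer forms was computed over the 16 sequences with any miR-26 annotation.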

Additional observations from a re-analysis of the deposited data

How the results depend on the processing

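All values here are log2 fold changes or counts of the 9 members, and the causes of changes were not tested beyond the construction of each alternative. Members called lower on oxidation of control RNA numbered 7 to 9 over all alternatives. In non-oxidized RNA no member was called under any edgeR alternative, and DESeq2's Wald test called 2 lower. With oxidized RNA compared between plasmids, 8 members were called higher, 7 to 8 with 1 library left out, 3 under total listed counts, 5 with only the libraries compared, and 2 (with 1 lower) when only miRNA-annotated sequences were fitted. In the same comparison the 21-nt miR-26a-5p form was at -1.27 under total counts and -2.55 with miRNA-annotated sequences only (edgeR adjusted p = 0.0388), and the 21-nt miR-26b-5p form at -0.14 and -1.25 (adjusted p = 0.0693). The oxidation effect on 22-nt miR-26a-5p in methyltransferase RNA was -3.97 under total counts and -3.47 with miRNA-annotated sequences only, and -5.13 to -4.55 with 1 library left out. Between plasmids in non-oxidized RNA, small values changed sign: under total counts the T1C and T1G forms of miR-26a-5p were at 0.46 and 0.15 and the T1C form of miR-26b-5p at 0.20. With miRNA-annotated sequences only these were 0.61, 0.27 and 0.34, and the 20-nt and 23-nt miR-26b-5p forms were at 0.086 and 0.019. With only the libraries compared T1C of miR-26a-5p was at 0.046, and with 1 library left out it ran from -0.31 to 0.070 (0.062 in another), T1G of miR-26a-5p from -1.64 to 0.47 (0.26 in another) and T1G of miR-26b-5p from -2.30 to 0.015. With the replicate number as a block the counts were 9 lower, 0 and 8 higher and the oxidation effect -4.89, and deviations of same-numbered libraries correlated at -0.0060, 0.37, 0.13 and 0.051 in the 4 contrasts. Correlations over 2 pairs do not show pairing. The alternative that kept only sequences with enough counts in every library gave no share of miR-26b-5p, since none was left. Oxidized control counts of 0 to 35 limit every fold against that group.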

Other observations

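The make-up of the family by miRNA and by length was also computed over the 16 sequences with a miR-26 annotation. The miR-26b-5p share was 28.4% and 30.9% in non-oxidized control, 28.9% and 25.3% in non-oxidized methyltransferase and 69.0% and 66.0% in oxidized methyltransferase RNA. Oxidized control RNA gave 21.7% and 44.9%, from only 60 and 69 counts. Non-oxidized groups overlapped (exact permutation p = 0.667), and the oxidized methyltransferase libraries were above both. Sequences longer than the annotated form made up 27.5% ± 1.87 (SD, n = 2) of counts in non-oxidized control, 25.3% ± 1.86 in non-oxidized methyltransferase and 65.5% ± 1.92 in oxidized methyltransferase RNA, mostly the 22-nt miR-26b-5p form. Over the 9 members alone the miR-26b-5p share was 2.36% ± 0.829 in non-oxidized and 5.72% ± 0.731 in oxidized methyltransferase RNA, which leaves out that form.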
